A study of Mus musculus with 3 samples.

Results

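Ighm, Igkc, Jchain and Tcrg-C1 are antigen receptor genes that were detected in LSK cells, bone marrow cells sorted as negative for lineage markers and positive for Sca1 and Kit, which include blood stem cells and early progenitors. They are 4 of the 31053 genes measured, and they were followed in the 3470 cells that the submitters kept out of 4108 barcodes. The genes were chosen by their measured counts in these same cells, so their own levels are given as a description, and tests are kept to surface proteins, to other genes and to fits over all genes. The cells came from 2 mice labelled Helios-deficient (557 and 824 kept cells) and 2 wild-type mice (1175 and 914 kept cells). One hashtag antibody marked the cells of each mouse, and a single droplet run held all 4 mice. The allele, strain and age of the mice are not given in the sources used here. Helios, the product of Ikzf2, is a DNA-binding protein related to Ikaros. In addition, 4 surface proteins (CD41, CD48, CD150 and CD135, also called Flt3) were counted in the same cells with tagged antibodies.

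Antibodies and T cell receptors are made from gene segments that are cut and joined during lymphocyte development. Before any joining, the constant regions of these loci can already be transcribed, and such germline transcripts are known from early lymphoid progenitors. Ighm encodes the heavy chain constant region of IgM, Igkc the constant region of the kappa light chain, and Tcrg-C1 a constant region of the T cell receptor gamma chain. Jchain encodes the joining chain that links IgM and IgA into multimers and is abundant in plasma cells, the antibody-secreting end stage of the B lineage. Counts from the 3 prime end of a transcript do not separate a germline transcript from one of a joined gene.

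In build GRCm38.p6, Ighm lies at chr12:113418826-113422730, Igkc at chr6:70726435-70726754 and Tcrg-C1 (Trgc1 in RefSeq) at chr13:19214103-19216618, each annotated as a constant region segment. Jchain, at chr5:88519809-88527897, is an ordinary protein-coding gene with a start site of its own, and it is the member for which RefSeq gave a promoter. Its 300 bases (GRCm38.p6, chr5:88527848-88528147, minus strand, 5′ to 3′, from 250 before to 50 after the start) are printed with GGGAA, the core motif bound by Ikaros family factors, in capitals.
Jchain promoter: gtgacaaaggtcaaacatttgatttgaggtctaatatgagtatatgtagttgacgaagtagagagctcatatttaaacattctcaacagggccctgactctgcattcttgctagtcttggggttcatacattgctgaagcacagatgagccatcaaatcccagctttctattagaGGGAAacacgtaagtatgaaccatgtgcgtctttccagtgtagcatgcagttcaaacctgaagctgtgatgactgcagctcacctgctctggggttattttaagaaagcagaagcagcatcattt
Searched on both strands, GGGAA occurred once in this window, 75 bases before the start, and it occurred in 62.7% of 32851 mouse promoters of the same length. The match is a run of letters, not a site shown to be bound.

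The kept cells held a median of 8670 and 8461 UMIs (unique transcript counts) in Helios-deficient animals, against 7599 and 7627 UMIs in wild-type animals. The LSK label was checked on RNA: Kit had a UMI in 51.4% to 56.2% of the cells of each mouse, Ly6a (which encodes Sca1) in 56.6% to 61.7%, and Cd34 in 84.7% to 89.9%. Cd3e, a T cell marker, had 0 UMIs in all kept cells. Ikzf2 was at 73.6 and 82.7 CPM (a gene's UMIs scaled to the total of the sum) in Helios-deficient animals while it was at 70.6 and 67.7 CPM in wild-type animals. A 3 prime count need not report on a deletion elsewhere in the gene, so Ikzf2 RNA did not check the genotype labels. The mouse was the replicate, and n was 2 per genotype.

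**Figure D1:**
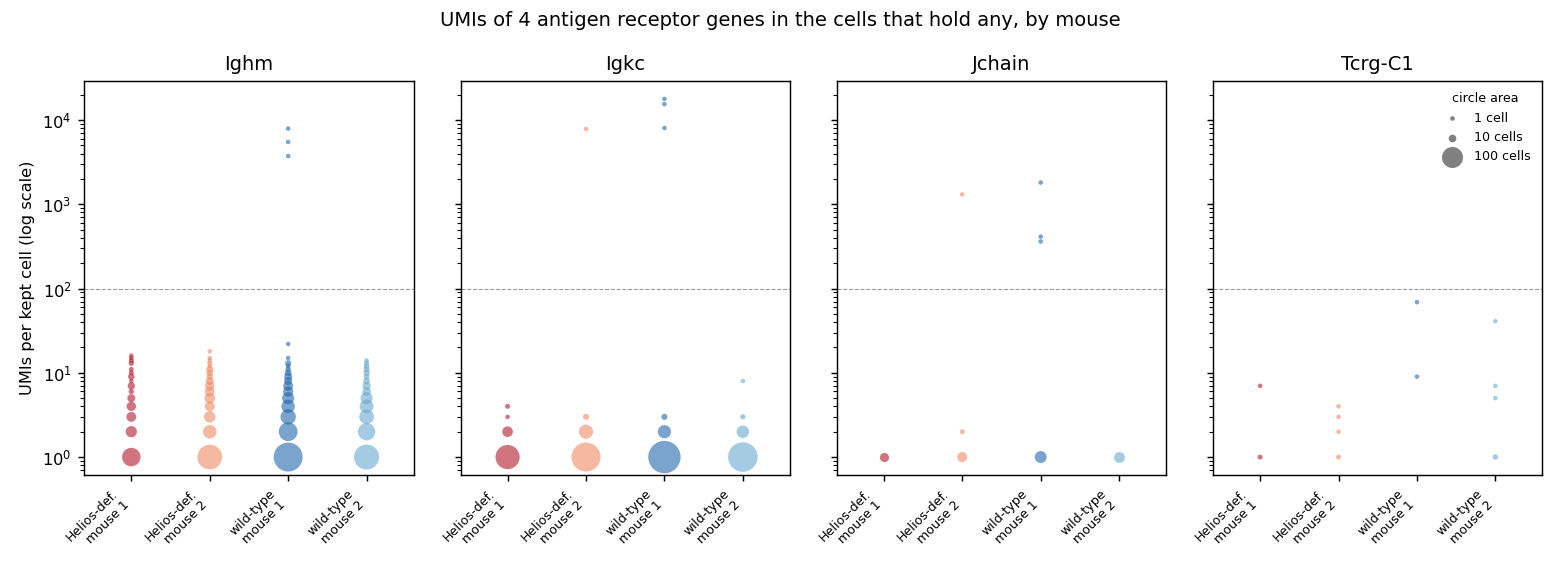
UMIs per kept cell (log scale) of each gene in the cells that held at least 1, by mouse, with circle area growing with the number of cells at that value. Ighm formed a continuous range up to 22 UMIs, Igkc and Jchain lay almost wholly at 1 to 4, and 4 cells stood above 100 (dashed line) for the immunoglobulin genes.

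Immunoglobulin UMIs fell into a sparse range and a handful of very high cells, with nothing between. Selected on this gap, and over Ighm, Igkc and Jchain together, the lowest of the 4 immunoglobulin-high cells held 9137 UMIs and the next cell held 23. One high cell came from Helios-deficient mouse 2 and the other 3 from wild-type mouse 1. These 4 cells carried 79.5% of all Ighm UMIs in kept cells, 97.8% of all Igkc UMIs and 97.6% of all Jchain UMIs. A total per mouse therefore reports mainly on whether a mouse contributed such a cell.

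The high cell of Helios-deficient mouse 2 held 7826 Igkc, 1311 Jchain, 7218 Igha and 0 Ighm UMIs among its 21800 UMIs. Igha encodes the heavy chain constant region of IgA. The 3 high cells of wild-type mouse 1 instead held Ighm, at 3737, 5498 and 7926 UMIs, with 0 Igha. Their Igkc counts were 8047, 17822 and 15466 UMIs, and their Jchain counts 413, 362 and 1813 UMIs. One cell was thus of the IgA kind and 3 of the IgM kind, each with 1 heavy chain class. Immunoglobulin and T cell receptor segment genes, without Jchain, together made up 69.3% of the UMIs of the IgA cell and 53.3%, 71.6% and 72.3% of the UMIs of the IgM cells.

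Some variable segments were seen in 1 high cell only and another was shared. Ighv2-3 had 6 UMIs and Igkv8-24 had 3 in the IgA cell. One IgM cell held 13 UMIs of Ighv11-2 with 16 of Igkv14-126, and another held 5 of Igkv8-19. Each of these segments was at 0 in the other high cells. Iglv1, a lambda light chain variable segment, had 0 UMIs in the IgA cell but 105, 116 and 66 in the IgM cells.

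Plasma cell markers were detected in all 4 high cells. Of the 16 genes of that list, 15 were detected in the IgA cell and 16, 15 and 15 in the IgM cells, summing to 192 UMIs and to between 192 and 226 UMIs. Mzb1, a chaperone-like protein of antibody secretion, had 50 UMIs in the IgA cell and 5 to 23 in the IgM cells. Xbp1, the transcription factor of the secretory program, had 47 UMIs in the IgA cell and 60 to 63 in the IgM cells. Prdm1, another transcription factor of plasma cells, had 0 UMIs in the IgA cell and 0 to 2 in the IgM cells. Of 16 B lineage genes, 6 were detected in the IgA cell (80 UMIs) and 5 or 6 in the IgM cells (122 to 333 UMIs). Most of these UMIs were of Cd74, at 60 in the IgA cell and 93 to 313 in the IgM cells. Kit had 0 UMIs in the IgA cell and 1 or 2 in the IgM cells, and Dntt and Elane, which mark lymphoid and granulocyte progenitors, were at 0 in all 4. Ly6a stood at 22 UMIs in the IgA cell and at 16 to 59 in the IgM cells, where the median of kept cells was 1 and the 95th percentile 5. Their CD48 tag counts were 358 in the IgA cell and 167 to 263 in the IgM cells, against a median of 111 over kept cells. They are called plasma cell-like here from these markers.

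Outside the 4 high cells, Igkc and Jchain were sparse and even. Igkc was at 33.3 and 35.1 CPM in Helios-deficient animals while it was at 32.2 and 34.1 CPM in wild-type animals. Jchain was at 2.79 and 2.85 CPM in Helios-deficient animals while it was at 2.91 and 2.87 CPM in wild-type animals. For both genes the genotypes overlapped or nearly touched, whether or not a mouse had a plasma cell-like cell among its kept cells. An Igkc count of exactly 1 was found in 774 of these cells and of 2 to 9 in 153, with 8 as the highest. Of the cells with a Jchain UMI, 90 held 1 UMI and 2 held 2.

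The ratio of sparse Jchain to sparse Igkc had an interval that overlapped that of the plasma cell-like barcodes. There were 0.0851 Jchain UMIs per Igkc UMI in the sparse cells (94 of Jchain to 1104 of Igkc, exact 95% binomial interval 0.0682 to 0.105), against 0.0954 (0.0929 to 0.0979) summed over the 5 high barcodes, 1 of which the submitters left out. Summed in the same way, Igha had 0.135 UMIs per Igkc UMI (0.113 to 0.16) in the sparse cells and 0.113 (0.11 to 0.115) in the 5 high barcodes. The sparse Igha UMIs numbered 17 and 45 in Helios-deficient animals and 49 and 38 in wild-type animals, although 7218 of the 7367 Igha UMIs lay in 1 cell of Helios-deficient mouse 2. The 5 barcodes differed among themselves, from 0.0203 to 0.168 Jchain per Igkc. Igha per Igkc was 0.922 in the IgA cell and 0 in each of the other barcodes. Its summed ratio thus matched no single barcode and depended on which barcodes were captured. Ighm stood apart, with 4.01 UMIs per Igkc UMI (3.75 to 4.28) in the sparse cells and 0.368 (0.363 to 0.374) in the high barcodes. These intervals cover counting error only.

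**Figure D2:**
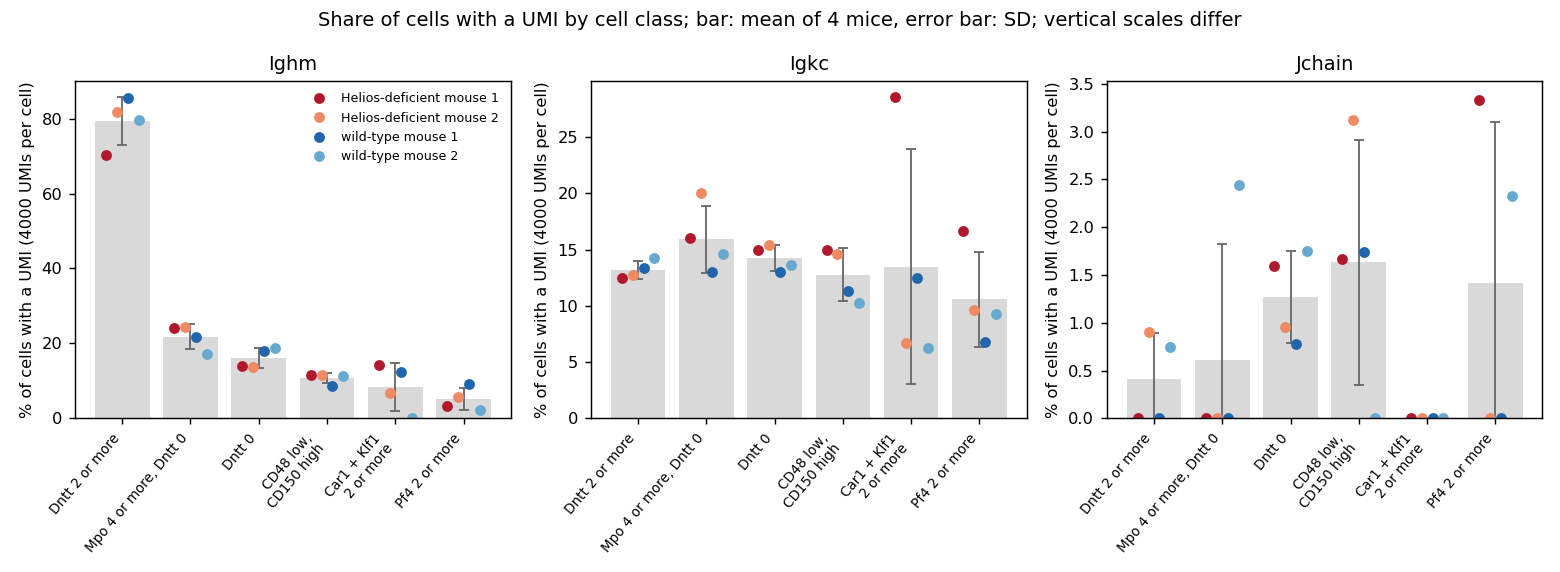
Share of cells with at least 1 UMI of Ighm, Igkc and Jchain (percent, each cell thinned to 4000 UMIs) in 6 overlapping classes of cells, with bars for the mean of 4 mice, error bars for the SD and a point per mouse. Ighm went from 79.3% in Dntt-positive cells to 5.13% in Pf4-positive cells, while Igkc stayed between 10.6% and 15.9%.

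To compare classes of cells at equal depth, each cell was thinned to 4000 UMIs, and cells with 20 or more immunoglobulin UMIs or fewer than 4000 UMIs in all were left out, which kept 3382 cells. Ighm was detected most often in Dntt-positive cells. Among Dntt-positive cells (2 or more UMIs of Dntt, the enzyme that adds bases where segments join, and fewer than 2 of Elane), 79.3% ± 6.43 had an Ighm UMI (SD, n = 4 mice, 464 cells, median depth before thinning 8315.5 UMIs). Among Pf4-positive cells (2 or more UMIs), which carry a platelet chemokine and should lack immunoglobulin, 5.13% ± 3.01 did (n = 4 mice, 169 cells, median depth 9636 UMIs). The lowest mouse in the first class was at 70.3% and the highest in the second at 9.09%, so the classes did not overlap. Without thinning the pooled shares were 92.7% and 16.6%.

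Other classes lay between. The Ighm share was 21.8% ± 3.38 in 180 cells with 4 or more Mpo UMIs and 0 of Dntt (Mpo is a granule enzyme of granulocyte-monocyte progenitors). In 359 cells low for CD48 and high for CD150, a gate used to enrich for stem cells, it was 10.8% ± 1.41. In 46 cells with 2 or more UMIs of Car1 and Klf1 together, both genes of the red cell lineage, it was 8.36% ± 6.46. Ighm per Igkc UMI was 15.2 (11.9 to 19.6) in Dntt-positive cells, 0.896 (0.58 to 1.38) in the CD48-low, CD150-high cells and 0.706 (0.308 to 1.57) in Pf4-positive cells.

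Igkc gave no such order. Its share was 13.2% ± 0.8 in Dntt-positive cells, 12.8% ± 2.37 in the CD48-low, CD150-high cells, 13.5% ± 10.4 in the Car1 and Klf1 class, and 10.6% ± 4.23 in Pf4-positive cells. By mouse the Igkc share ran from 13.4% to 14.9% over all 3382 cells, which include the Pf4-positive ones. In Pf4-positive cells it ran from 6.82% to 16.7%, so the ranges overlapped. Only 17 Pf4-positive cells held a UMI, too few for this comparison to show whether sparse Igkc differed from its level in a class that should lack it. Whether the sparse share is background or expression was not tested. Pf4 RNA itself was lower in cells with an Igkc UMI, at 65.7 ± 29.2 CPM with Igkc and 135 ± 50.2 CPM without (SD, n = 4 mice, edgeR adjusted p = 1.17e-12), so Igkc was not even across Pf4 levels. Jchain had a UMI in 2 of the 464 Dntt-positive cells and 2 of the 169 Pf4-positive cells, too few to set apart from background.

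**Figure D3:**
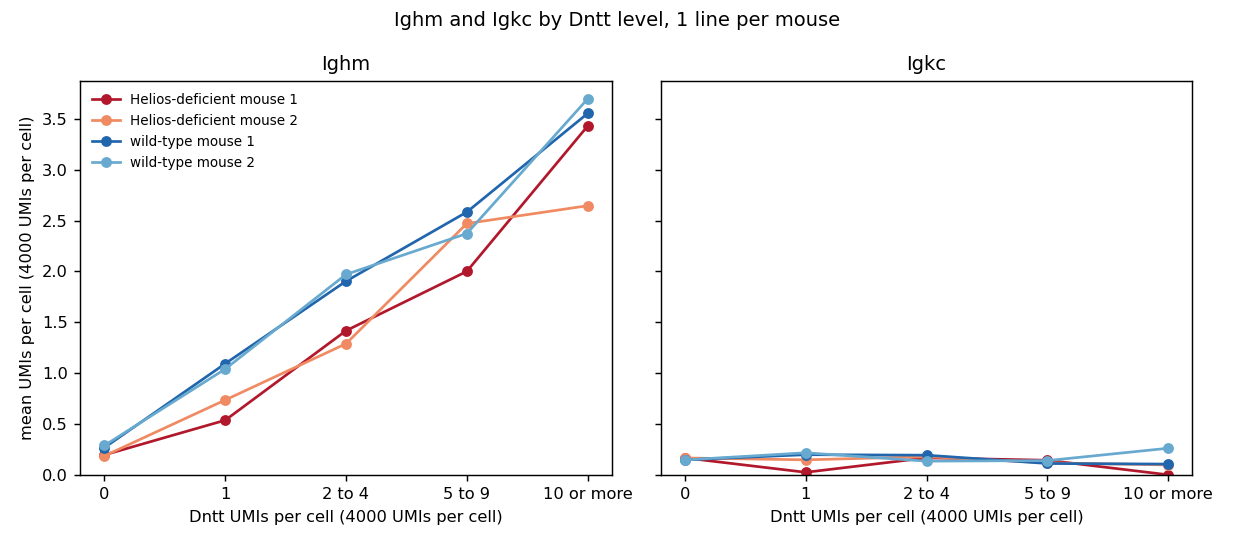
Mean UMIs per cell of Ighm and Igkc (each cell thinned to 4000 UMIs) in cells grouped by Dntt UMIs, with 1 line per mouse. Ighm climbed with Dntt in every mouse while Igkc stayed below 0.3 UMIs per cell.

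Ighm was graded with Dntt. Over all 4 mice the share of cells with an Ighm UMI was 16.5% at 0 Dntt UMIs (2649 cells), 45% at 1 (269 cells), 71% at 2 to 4 (231 cells), 86.6% at 5 to 9 (134 cells) and 96% at 10 or more (99 cells). Mean Ighm over the same groups was 0.242, 0.903, 1.73, 2.4 and 3.29 UMIs per cell. The order held in each mouse, where the thinnest group was 7 cells of Helios-deficient mouse 1 at 10 or more. The cells with 2 or more Dntt UMIs were 13.7% of the cells and held 54.2% of the Ighm UMIs but 13.2% of the Igkc UMIs.

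Even the strongest sparse Ighm cells stayed far below the plasma cell-like ones. The highest Ighm count outside the 4 high cells was 22 UMIs, and 70 kept cells held 10 to 99. RNA of the partners that carry an IgM receptor to the surface was uneven over all kept cells outside the high ones. Cd79a had 6 UMIs, Vpreb1 had 91 and Igll1 had 2, while Cd79b had 1430 in 1160 cells. Pax5, which fixes B cell identity, had 0, Ebf1, an early B cell factor, had 29, Rag1 had 5 and Rag2 89 (the enzyme pair that cuts the segments).

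The Dntt-positive cells were then set against Elane-positive cells, which hold neutrophil elastase RNA, in edgeR fits with the mouse as a block. Of the members, Ighm alone was abundant enough to be tested here, and it was called, where 7.15% of 2168 genes were called. Ighm was at 457, 509, 615 and 599.6 CPM in the Dntt-positive cells of Helios-deficient mice 1 and 2 and wild-type mice 1 and 2. It was at 75, 300, 0 and 0 CPM in their Elane-positive cells, so the groups did not overlap (log2 fold change 1.9, SE 0.43, adjusted p = 0.000431). The Elane-positive cells numbered only 10, 10, 2 and 1 per mouse. Without Helios-deficient mouse 1 Ighm was not called (log2 fold change 1.88, adjusted p = 0.16), and without Helios-deficient mouse 2 it was called at 3.48. Against all cells with 0 Dntt UMIs, a larger arm chosen after seeing the data, Ighm was 9.69-fold higher (log2 fold change 3.28, SE 0.081), where 13.7% of 8363 genes were called. Igkc in that fit stood at 0.013 on the log2 scale (SE 0.2, adjusted p = 0.984).

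**Figure D4:**
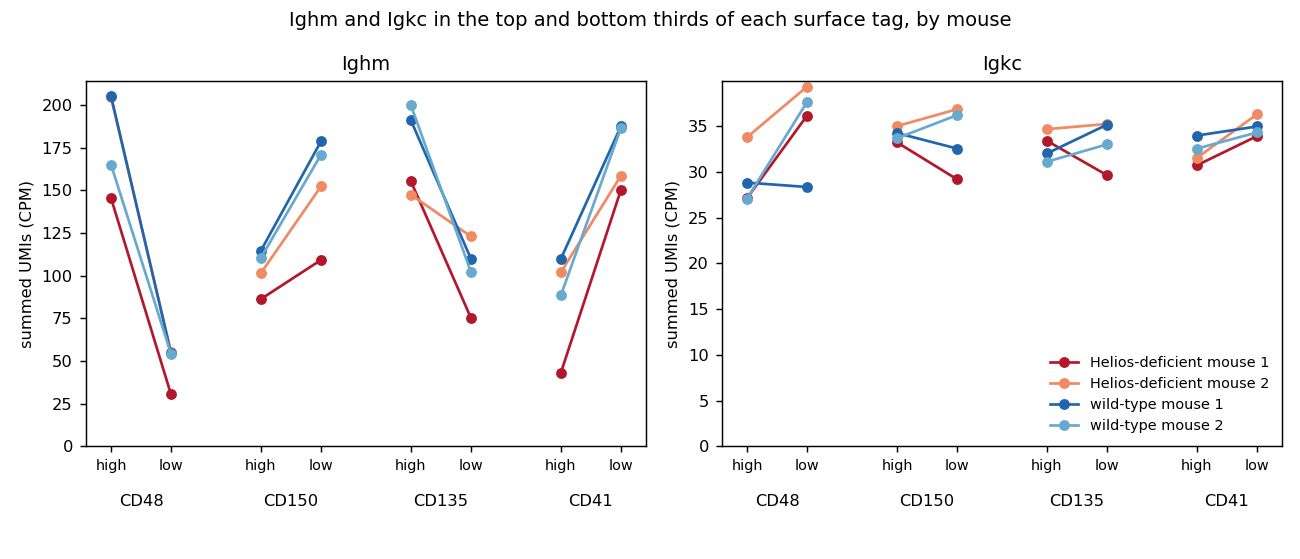
Summed Ighm and Igkc (CPM) in the upper and lower terciles of cells for each of 4 surface tags, with a line per mouse joining its high (left) and low (right) cells. Ighm was higher in CD48-high and CD135-high cells and lower in CD150-high and CD41-high cells of all 4 mice, while Igkc log2 fold changes lay between -0.18 and 0.0028.

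Surface protein gave a view that the choice of genes did not use. CD48 appears on progenitors as they leave the stem cell state. In the upper tercile of CD48 tag counts Ighm was at 145, 204, 205 and 165 CPM in Helios-deficient mice 1 and 2 and wild-type mice 1 and 2, against 30.4, 55.2, 54.5 and 54.2 CPM in the lower tercile. The terciles did not overlap, and the change was 3.84-fold (log2 fold change 1.94, SE 0.078, adjusted p = 4.33e-31 in edgeR). Of the 2 members tested by CD48, this 1 was called, where 37.4% of 9942 genes were called, so a call by CD48 was common. Igkc in the same cells was at 27.1, 33.8, 28.8 and 27.1 CPM in the upper tercile and at 36.2, 39.3, 28.4 and 37.7 CPM in the lower tercile (log2 fold change -0.18, SE 0.12, adjusted p = 0.249). These fits left out the 6 cells with 20 or more immunoglobulin UMIs. With them kept, Ighm had a log2 fold change of 4.33 by CD48 (SE 1.16) and was not called (adjusted p = 0.0749).

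CD150 marks stem cells and cells primed for platelets, and it ran the other way. Ighm was at 86.3, 101.5, 115 and 110.4 CPM in the CD150-high cells of the 4 mice in the same order, against 109, 152, 179 and 171 CPM in their CD150-low cells. Every mouse was lower in its CD150-high cells, although the ranges overlapped between mice (log2 fold change -0.58, SE 0.06, adjusted p = 6.64e-12). Ighm was the 1 of 3 members called by CD150, where 8.73% of 10062 genes were called. Igkc had 0.0028 (SE 0.11) and Jchain -0.036 (SE 0.38) on the same scale. Without the mouse as a block, Ighm by CD150 was not called (adjusted p = 0.114), and with the 6 cells kept its log2 fold change was 0.98 (SE 1.49, adjusted p = 0.814).

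CD135, the Flt3 receptor of multipotent and lymphoid progenitors, and CD41, an integrin of the platelet lineage, did not pass the test. Ighm was at 155, 147, 191 and 199.7 CPM in CD135-high cells, against 75.1, 123, 109.8 and 102 CPM in CD135-low cells (log2 fold change 0.76, SE 0.14, adjusted p = 0.11). It was at 43.1, 102, 109.9 and 88.6 CPM in CD41-high cells, against 150.2, 158, 187 and 186 CPM in CD41-low cells (log2 fold change -0.96, SE 0.2, adjusted p = 0.109). Each mouse had the same direction and neither pair of ranges overlapped, but 0 members were called, where 2.54% of 10013 genes were called by CD135 and 8.22% of 10062 by CD41. Unadjusted, the p-values were 0.00446 by CD135 and 0.013 by CD41, and DESeq2 called Ighm in both comparisons. Igkc had log2 fold changes of -0.025 (SE 0.11) by CD135 and -0.12 (SE 0.11) by CD41.

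**Figure D5:**
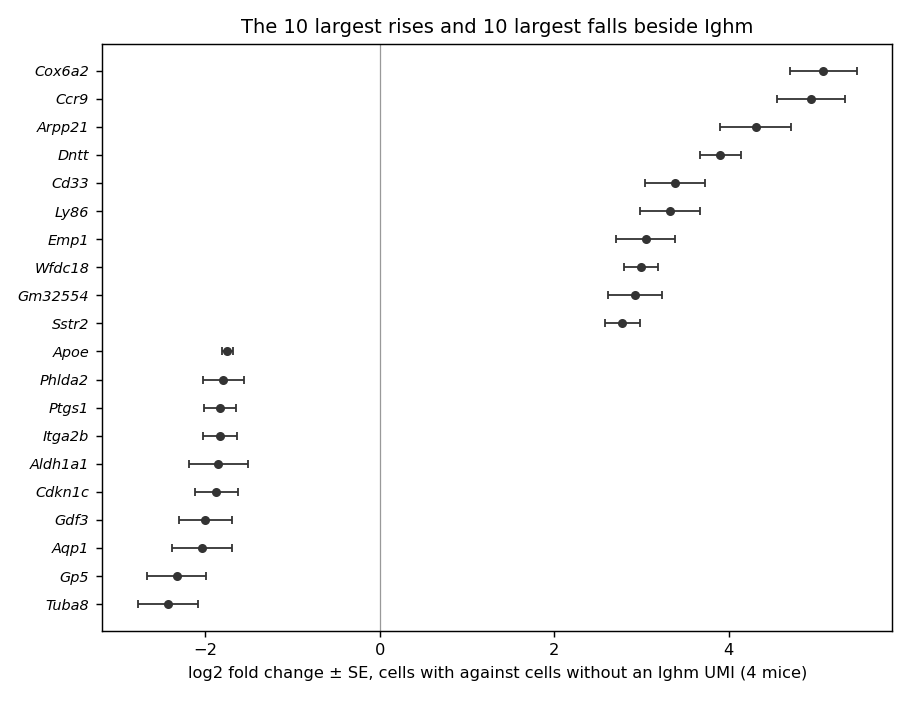
Log2 fold change with its SE (4 mice) of the 10 genes that rose most and the 10 that fell most in cells with an Ighm UMI, relative to cells with none. Cox6a2 and Ccr9 stood highest, at 5.08 and 4.95, and Tuba8 and Gp5 lowest, at -2.43 and -2.33.

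Early lymphoid genes rose in cells with an Ighm UMI. Set against cells with none, at 4000 UMIs per cell and with the mouse as a block in edgeR, they differed in 1015 of 8953 genes (11.3%), of which 583 rose and 432 fell. Ighm, which defined the groups, is itself among the rises. Of the 16 early lymphoid genes, 12 were tested, 11 rose and none fell, with a median log2 fold change of 1.82, where the median over all genes was 0.0047. Dntt averaged 727 ± 143 CPM with Ighm and 51.3 ± 13.8 CPM without (SD, n = 4 mice, 14.96-fold, edgeR adjusted p = 0.00341). Flt3 averaged 299 ± 33.9 CPM with Ighm and 86.4 ± 21.4 CPM without, a 3.48-fold rise. Ccr9, the chemokine receptor that guides progenitors to the thymus, was at 12.7 to 45.4 CPM with Ighm and at 0 to 1.88 CPM without. It is 1 of the 11 that rose, and it passed the filter on low counts only through the cells with Ighm, so its rise is a description. Il12a rose 4.46-fold, Wfdc17 6.1-fold and Cd52 2.52-fold.

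The largest rises outside that list were those of Cox6a2, a subunit of cytochrome c oxidase (33.9-fold), Arpp21, an RNA-binding phosphoprotein (19.8-fold), Cd33 (10.4-fold) and Ly86, a partner of a Toll-like receptor relative (10-fold). Emp1, Wfdc18, Gm32554 and Sstr2 followed, between 6.86-fold and 8.26-fold. Of 10 granulocyte-monocyte genes tested, Irf8 (5.32-fold) and Csf1r (5.68-fold) rose and Ms4a3 fell, while Mpo was at 251 CPM with Ighm and 224 CPM without (adjusted p = 0.0551). The 2 that rose are a transcription factor and a receptor used by monocyte and dendritic cell progenitors.

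Stem cell and platelet genes were lower in cells with Ighm. Of 9 stem cell genes tested, 8 fell and none rose (median log2 fold change -0.99), and of 7 megakaryocyte genes 6 fell and none rose (median -1.25). Gata2, a transcription factor of stem cells and early progenitors, averaged 47.4 ± 6.89 CPM with Ighm and 121 ± 8.79 CPM without. Procr, a stem cell surface protein, averaged 29.7 ± 9.11 CPM with Ighm and 58.2 ± 8.9 CPM without. Apoe was at 129 to 248 CPM with Ighm and at 484 to 729 CPM without. Tuba8, Gp5, Aqp1, Gdf3 and the cell cycle inhibitor Cdkn1c were among the 10 largest falls.

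Few genes of mature lymphocytes were tested, and in a list of 4 tested genes 1 call already exceeds the 11.3% of all genes. The shares called are therefore not read as a result about these lists. Of 4 tested B lineage genes, Cd74 (1.74-fold) and H2-Ab1 (1.29-fold), which serve antigen presentation, rose and none fell. Of 11 plasma cell genes tested, 2 rose and 3 fell. The risers were Sdc1, a surface proteoglycan (5.78-fold), and Tnfrsf13b, a receptor for B cell survival factors, and the fallers were Fkbp11, Creld2 and Sdf2l1, which act in protein folding. Lck, a T cell kinase, was the 1 of 4 T and innate lymphoid genes that rose (2.76-fold). Cd34 (1.45-fold) and Ly6a (1.25-fold) rose, and Kit was lower, at 76.5 ± 14 CPM with Ighm and 103 ± 1.94 CPM without. Igkc, the other member tested, was not called (log2 fold change 0.15, SE 0.15, adjusted p = 0.623). Tcrg-C1, too sparse for that fit, had a thinned UMI in 8 of the 932 cells with Ighm (0.858%) and in 3 of the 2450 without (0.122%). The 8 cells with 3 or more Tcrg-C1 UMIs before thinning, some with T or natural killer cell genes (below), each held 1 to 7 Ighm UMIs. Their part in the rise of Lck, and in that of Trbc2 below, was not tested.

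Some other receptor segments were found more often in cells with Ighm. Of the 660 immunoglobulin and T cell receptor segment genes in the feature table, which do not include Jchain, 48 had a UMI in kept cells, and Igkc, Ighm, Igha, Iglc2 and Iglv1 had the most. Ighv1-77, a heavy chain variable segment, had a UMI in 3.22% of the 932 cells with Ighm and in 0.204% of the 2450 without (log2 fold change 3.95, SE 0.61). Its 81 UMIs were spread over 68 cells, with at most 3 in any, and it was at 0 in the plasma cell-like cells. Trbc2, a constant region of the T cell receptor beta chain, had a UMI in 3.22% of the cells with Ighm and in 0.408% of those without (log2 fold change 3.34, SE 0.44). Ighv1-77 averaged 8.97 CPM with Ighm and 0.437 CPM without, and Trbc2 12.2 and 1.21 CPM. Both passed the filter on low counts only through the cells with Ighm. A fall could therefore not have been called, and no test is read from these 2 genes. Ighd, the IgD constant region that follows Ighm, was seen in 15 cells with Ighm and in 2 without, and Ighv1-82 in 20 with and 4 without, both too sparse for the fit. Trav6-7-dv9, a T cell receptor alpha variable segment, lay the other way, in 1 cell with Ighm (0.107%) and 10 without (0.408%), and was not in the fit either.

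Few genes differed between cells with and without an Igkc UMI. Of 8472 genes, 6 were called (0.0708%), 1 of which was Igkc itself, and the only member tested, Ighm, was not (log2 fold change 0.074, SE 0.097 and adjusted p = 0.993). Lgals1 rose 1.29-fold, and Pf4, Ccl5 and Zfp36l1 fell. Of 11 plasma cell, 11 early lymphoid and 4 B lineage genes tested, none was called in either direction. An Igkc UMI was present in 14.6% of the cells with Ighm and in 13.9% of those without. Jchain was present in 1.05% of the cells with Igkc and 1.14% of those without.

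The fits for cells with Jchain and Tcrg-C1 rested on very few cells. In each, the gene that defined the groups was itself among the genes tested. Cells with a thinned Jchain UMI numbered 8, 8, 8 and 14 per mouse, and 36 of 7935 genes were called (0.454%), 33 of them lower, with 0 of 2 members called. Another scaling (RLE) gave 8 calls, 4 of them lower. Cells with a thinned Tcrg-C1 UMI numbered 3, 3, 2 and 3, and 208 of 7648 genes were called (2.72%), with 0 of 2 members. The median over all genes in that fit was -1.01 on the log2 scale, against -0.26 with RLE scaling, so a fall there is not read. At or over 10 CPM, the rises with the same direction in all 4 mice were Bcl2, Crip1, and Zbtb16 and Tox, genes of T and innate lymphoid cells. Of the 4 genes of the T and innate lymphoid list tested, Gata3, Lck and Rora rose and none fell.

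Tcrg-C1 was detected in 16 kept cells, 0.461% of the total (exact 95% interval 0.264% to 0.748%). It had 9 and 11 UMIs in Helios-deficient animals, in 3 and 5 cells, against 78 and 56 UMIs in wild-type animals, in 2 and 6 cells. One cell of wild-type mouse 1 held 69 UMIs and one of wild-type mouse 2 held 41, and these 2 cells carried 71.4% of all Tcrg-C1. The next highest cell held 9.

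Both top cells carried T cell genes, and no UMI of the LSK markers was found in them. The cell with 69 UMIs also held 23 of Trbc1, 15 of Tcrg-C2, 10 of Lck, 6 of Bcl11b and 5 of Gata3, the last 2 being transcription factors of early T cells. The cell with 41 held 29 of Trbc1, 24 of Tcrg-C2, 10 of Tcrg-C4, 7 of Lck, 12 of Bcl11b, 5 of Gata3 and 16 of Dntt. Of the 16 genes of the T and innate lymphoid list, 6 and 8 were detected in these cells. Kit, Ly6a and Cd34 were at 0 in both, and Cd3e too. In the kept cells of wild-type mice 1 and 2, Kit had a UMI in 51.4% and 51.9% and Ly6a in 57.6% and 56.6%. A count of 0 for either gene was thus common, while Cd34 had a UMI in 89.9% and 87.6%.

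The other Tcrg-C1 cells were of several kinds. A cell of wild-type mouse 1 with 9 UMIs and a cell of wild-type mouse 2 with 7 held Id2 (14 and 27 UMIs), Trbc1 (13 and 21) and Gata3 (5 each), and 15 of Rora were in the second of them. Id2 and Rora are factors of innate lymphoid cells. A cell of wild-type mouse 2 with 5 UMIs held 10 of Ncr1, 17 of Xcl1 and 7 of Klrb1c, genes of natural killer cells. Kit, Ly6a and Cd34 were at 0 in these wild-type cells too. Nkg7, of the T and innate lymphoid list, had 7, 13 and 5 UMIs in them. The cell of Helios-deficient mouse 1 with 7 UMIs held 13 of Dntt, 13 of Nkg7, 5 of Il7r, 7 of Cd34 and 7 of Ighm. Trbc1, Id2 and Gata3 were at 0 in it. The top cells of Helios-deficient mouse 2, with 4 and 3 UMIs, held 5 and 2 of Tcf7 and 9 and 14 of Nkg7. The first of them also held 4 of Id2, 4 of Il2rb and 1 of Gata3.

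Summed per mouse, Tcrg-C1 was the 1 of 4 members called between genotypes by edgeR, where 0.794% of 11592 genes were called. It was at 1.57 and 1.31 CPM in Helios-deficient animals, against 7.56 and 6.69 CPM in wild-type animals (log2 fold change -2.32, SE 0.3, adjusted p = 0.00019). The groups did not overlap. The call rested on the 2 top cells, 1 in each wild-type mouse. Without them, a setting added after seeing the data, the sums were 9 and 11 UMIs in Helios-deficient animals and 9 and 15 UMIs in wild-type animals (1.57 and 1.31 CPM against 0.873 and 1.79 CPM). The groups then overlapped, and Tcrg-C1 was not called (log2 fold change 0.13, SE 0.49, adjusted p = 0.958), where 0.794% of 11588 genes were called. Tcrg-C2 was also called (log2 fold change -4.7, SE 0.89, adjusted p = 0.0116), and 15 and 24 of its 42 UMIs lay in the same 2 cells.

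The immunoglobulin sums were not called between genotypes. Ighm was at 103 and 131 CPM in Helios-deficient animals, against 1809.9 and 145 CPM in wild-type animals (log2 fold change -3.05, SE 1.74, adjusted p = 0.73). Igkc was at 33.3 and 964 CPM in Helios-deficient animals, against 4038 and 34.1 CPM in wild-type animals (log2 fold change -2.02, SE 3.31, adjusted p = 0.91). Jchain was at 2.79 and 158 CPM in Helios-deficient animals, against 254 and 2.87 CPM in wild-type animals (log2 fold change -0.62, SE 2.64, adjusted p = 0.968). In each case 1 mouse or 2 with a plasma cell-like cell stood far above the rest. Without wild-type mouse 1 the log2 fold changes were -0.31 for Ighm, 3.87 for Igkc and 4.86 for Jchain, none of them called, and without wild-type mouse 2 Ighm was called at -3.94. These fits leave 1 wild-type mouse, which is assumed to vary like the Helios-deficient pair, and in the last fit its Ighm sum was 91.9% from plasma cell-like cells.

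Sparse Ighm was lower in Helios-deficient animals at equal depth. Without cells of 20 or more immunoglobulin UMIs, and unthinned, Ighm missed the threshold, with a log2 fold change of -0.31 (SE 0.086) and an adjusted p of 0.113. With each cell thinned to 4000 UMIs, a setting added after seeing the data, mean Ighm was 413 and 485 UMIs per 1000 cells in Helios-deficient animals, against 632 and 666 UMIs per 1000 cells in wild-type animals. This difference passed the test (log2 fold change -0.52, SE 0.091, adjusted p = 0.00179), where 0.86% of 10470 genes were called. Igkc in the same fit had a log2 fold change of 0.034 (SE 0.14), with 152 and 159.9 UMIs per 1000 cells in Helios-deficient animals and 152 and 154 UMIs in wild-type animals.

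The Dntt-positive share of thinned cells was 11.7% and 13.6% in Helios-deficient animals, against 13.8% and 14.9% in wild-type animals. Dntt RNA over all kept cells, unthinned, overlapped between genotypes, at 183 and 302 CPM in Helios-deficient animals, against 242 CPM in each of the wild-type animals. Within Dntt-positive cells mean Ighm was 1828 and 2036 UMIs per 1000 cells in Helios-deficient animals, against 2459 and 2399 UMIs per 1000 cells in wild-type animals. Within cells with 0 Dntt UMIs it was 0.196 and 0.186 UMIs per cell in Helios-deficient animals, against 0.268 and 0.288 UMIs per cell in wild-type animals. The genotypes did not overlap in either group, but neither difference was called over all genes (log2 fold changes -0.32, SE 0.11, adjusted p = 0.29, and -0.54, SE 0.13, adjusted p = 0.0593). In the fit of all kept cells 7 of 15 early lymphoid genes tested (Cd52, Flt3, Il12a, Lsp1, Ltb, Satb1 and Sox4) were lower in Helios-deficient animals and none was higher, with a median log2 fold change of -0.34, where the median over all genes was -0.0003. Of 11 granulocyte-monocyte genes, 6 (Anxa3, Ctsg, Igsf6, Mpo, Ms4a3 and Prtn3) were higher and none was lower, with a median of 0.82. Over all genes, 0.794% of 11592 were called in that fit. Both lists were chosen with earlier results of these data known, so these counts are a description and not a test. The part of either list in the Ighm difference was not tested.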

How the data were processed

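Per the labels, 2500 sorted cells per mouse were pooled in 1 droplet run of a 3 prime kit. The matrix holds raw UMI counts that the authors deposited, with software version 3.0.2 in its header. The submitters' processing notes name Cell Ranger, Seurat 3.0.0 and build mm10. The filter behind the deposited list of 3470 kept barcodes is not given in the sources used here. Hashtag calls (231 doublets, 35 without a hashtag) are the authors', hashtags were assigned to genotypes per the labels, and no further doublet calling was done.

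Counts were summed per mouse, or per mouse and class, and tested with edgeR 4.0.16 in R 4.3.3 (quasi-likelihood, robust, TMM scaling, default filter on low counts), with Benjamini-Hochberg adjustment over all genes tested and a threshold of 0.05. Mouse was a block where both sums came from the same mouse. Each SE is the size of the log2 fold change over the root of F. CPM divides a gene's count by the total of its sum. Classes and cells with a UMI were defined after thinning each cell to 4000 UMIs. On simulated counts, the genotype fit (11456 genes, 6 false calls) recovered 87 of 100 genes altered 1.5-fold and 100 of 100 altered 2-fold. The altered genes all lay above 10 CPM, and single very high cells were not simulated. Recovery was therefore not measured for sparse Jchain and Tcrg-C1, or for sums that rest on a few cells. All 4 mice shared a run, so there is no batch term, and hashtag numbers do not pair mice across genotypes. Alternatives were RLE scaling, DESeq2 1.42.0, no filter, other thinning and cell filters, and leaving out each mouse.

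The members and gene lists were chosen with earlier results of these data known. From each fit of cells with and without a UMI, the text names genes among the 10 largest rises and falls that passed 0.05, had at least 10 CPM and moved 1 way in 4 mice, and up to 4 genes per list by p. Ighv1-77, Ighv1-82, Ighd, Trbc2, Trav6-7-dv9, Tcrg-C2 and the segments of single cells were named after their values were seen. The 3 libraries are parts of 1 run and are not replicates. With the mouse as a block, the p-values measure how evenly a difference within mice recurred over the 4 mice. In the genotype fits they measure the spread between the 2 mice of each genotype.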

Additional observations from a re-analysis of the deposited data

Results flagged for a closer look

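One more immunoglobulin-high barcode, of wild-type mouse 2, stood among the barcodes that the submitters did not keep. It held 6459 Ighm, 14975 Igkc and 2217 Jchain UMIs, where no kept cell of that mouse held more than 14, 8 and 1 UMIs of these genes. It was of the IgM kind, with 0 Igha, and 13 of 16 plasma cell genes were detected in it. Its 36348 UMIs exceeded the 32870 UMIs of the largest kept cell, and its mitochondrial share was 1.12%. Plasma cell-like barcodes were thus found in both wild-type mice and in Helios-deficient mouse 2. Whether the size of the barcode led to its removal was not tested.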

How the results depend on the processing

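Of 201 values recomputed under an alternative other than leaving out a mouse, 148 kept their direction and their side of the threshold (for counts of genes, stayed within 1.5 times). Fits without 1 mouse are given as ranges. For genotype they leave 1 mouse in an arm, which is assumed to vary like the other pair. Fits without the 2 top Tcrg-C1 cells, against Mpo-positive or all 0-Dntt cells, and of genotype in thinned cells were chosen after seeing the data. Where a value below differs, the cause was not tested. Precision is limited by 2 mice per genotype, 1 run and few cells in some arms.

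For genotype, Tcrg-C1 had a log2 fold change of 0.13 without the 2 top cells, and Ighm one of -0.52 after thinning. Igkc had 0.053 without cells of 100 or more immunoglobulin UMIs, 0.048 without those of 20 or more, 0.17 in cells with 0 Dntt and 0.034 after thinning. Jchain had 0.013 in cells with 0 Dntt and 0.12 after thinning. Leaving out 1 mouse gave -2.44 to -2.17 for Tcrg-C1, -3.94 to -0.31 for Ighm, -5.93 to 3.87 for Igkc and -5.54 to 4.86 for Jchain. Genes called numbered 296 without a filter, 35 by DESeq2, 11 in Dntt-positive and 48 in 0-Dntt cells, and 126 to 565 without 1 mouse.

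With all kept cells, Ighm by CD48 had 4.33, Igkc by CD48 6.37, Ighm by CD150 0.98 and Jchain by CD150 6.01. Ighm by CD135 passed at 0.76 without a filter, 0.78 by DESeq2, 0.59 with halved tags and 0.38 without cells of 5 or more immunoglobulin UMIs. In the same 4 settings Ighm by CD41 passed at -0.95, -1.06, -0.68 and -0.83. Leaving out 1 mouse gave 0.68 to 0.93 by CD135, -1.08 to -0.82 by CD41, 1.87 to 2.04 by CD48 and -0.62 to -0.55 by CD150 for Ighm. It gave -0.029 to 0.050 for Igkc and -0.16 to 0.37 for Jchain by CD150, and -0.072 to 0.020 for Igkc and -2.04 to 0.56 for Tcrg-C1 by CD135. Without the replicate block of mouse, Ighm by CD150 was -0.57 and not called, and genes called numbered 16 by CD135, 322 by CD150 and 302 by CD41. Hashtag numbers do not pair mice across genotypes. DESeq2 called 24 genes by CD135, 176 by CD150, 169 by CD41 and 1890 by CD48. Halved tags gave 576 by CD150, and leaving out cells of 5 or more immunoglobulin UMIs gave 86 by CD135. Leaving out 1 mouse gave 83 to 200 by CD135, 563 to 781 by CD150, 591 to 913 by CD41 and 2909 to 3327 by CD48.

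For Dntt-positive against Elane-positive cells, genes called numbered 96 by DESeq2, 544 against Mpo-positive cells, 1148 against all 0-Dntt cells, 81 when thinned to 2000 UMIs and 35 to 243 without 1 mouse, where Ighm ranged from 1.77 to 3.48. Cells with Ighm gave 332 by DESeq2, 405 at 2000 UMIs, 1682 unthinned and 662 to 958 without 1 mouse. Cells with Igkc gave 10 without a filter, 2 by DESeq2, 2 at 2000 UMIs, 240 unthinned and 5 to 9 without 1 mouse, where Ighm ranged from -0.094 to 0.17. Cells with Jchain gave 8 by RLE, 119 without a filter, 1 by DESeq2, 134 at 2000 UMIs, 13 unthinned and 4 to 87 without 1 mouse. Cells with Tcrg-C1 gave 29 by RLE, 91 by DESeq2, 82 unthinned and 119 to 168 without 1 mouse.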
